A study of Mus musculus with 246 samples.

Results

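The anterior cingulate cortex (ACC) of adult male mice raised under early life adversity was compared with that of mice raised under standard conditions, in animals taken after they had met an unfamiliar mouse. The 13 libraries are those whose title names the ACC, vehicle and social interaction, 7 from adversity-raised mice (ELA_Veh) and 6 from controls (Ctrl_Veh), out of 246 libraries of 6 brain regions. All mice are outbred CD1 males, and each library is the pooled bilateral ACC punch of 1 mouse. In ELA_Veh the dam and her pups were kept with limited bedding and nesting material, and the dam received an empty phospholipid gel as vehicle. Dams of Ctrl_Veh received the same vehicle gel under standard housing. Both groups here had a social interaction of 10 minutes before the brain was taken. The comparison groups are 7 ELA_Veh and 7 Ctrl_Veh mice without interaction, which are other animals, and 7 ELA_SAFit2 mice with interaction, whose dams received the gel with SAFit2, an inhibitor of the stress-related chaperone FKBP51. The labels give no litter, so the housing of a dam and the family of a mouse cannot be told apart.

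The ACC is a frontal midline area that weighs emotional and social information and acts on subcortical stress circuits. Limited bedding and nesting disturbs maternal care and is a standard rodent model of early adversity. A brief social encounter induces immediate early genes in cortical neurons, and those transcripts peak within the hour. A tissue punch mixes neurons, glia, vessels and any neighbouring area it touches, so fewer cells of a type and less RNA per cell cannot be told apart in any value below.

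In these 13 libraries the total estimated count lay between 20804247 and 32964773, with a median of 24560000 in ELA_Veh and 28350000 in Ctrl_Veh. All 41 ACC libraries matched the other regions of their own mouse in a check with 60 genes that differ between mice, whereas in the nucleus accumbens only 29 of 41 did, and the accumbens is therefore not used below. General excitatory neuron markers summed to 4076 to 5918 CPM (counts scaled to library size) in ELA_Veh and 4843 to 6012 CPM in Ctrl_Veh. The 4076 CPM came from mouse 61 and was the lowest of all 41 ACC libraries, with the next at 4542 CPM and the highest at 6610 CPM. The library of mouse 89, a control, stood apart. Its 41 cytosolic ribosomal protein genes summed to 8075 CPM against 4854 to 5098 in the other 5 controls and 4752 to 6184 in the other 40 ACC libraries, and its 56 nuclear oxidative phosphorylation genes to 9663 CPM against 6225 CPM in the lowest control and 6559 CPM in the highest ELA_Veh mouse. Long transcripts lay 0.931 log2 units below short ones in mouse 89, where the other controls lay between 0.004 and 0.032. The library of mouse 61, in ELA_Veh, held 1699 CPM of 12 striatal neuron markers, against 226.0 to 506.4 in the other ELA_Veh mice and 235.4 to 462.8 in the controls, and 172.4 CPM of 7 lateral septum markers against 35.71 to 48.01 and 32.44 to 43.04. Among the mice without interaction the library of mouse 69 (ELA_Veh) resembled mouse 89 in kind, with a long-minus-short value of -0.372. Each result that rests on these libraries is given with and without them.

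**Figure D1:**
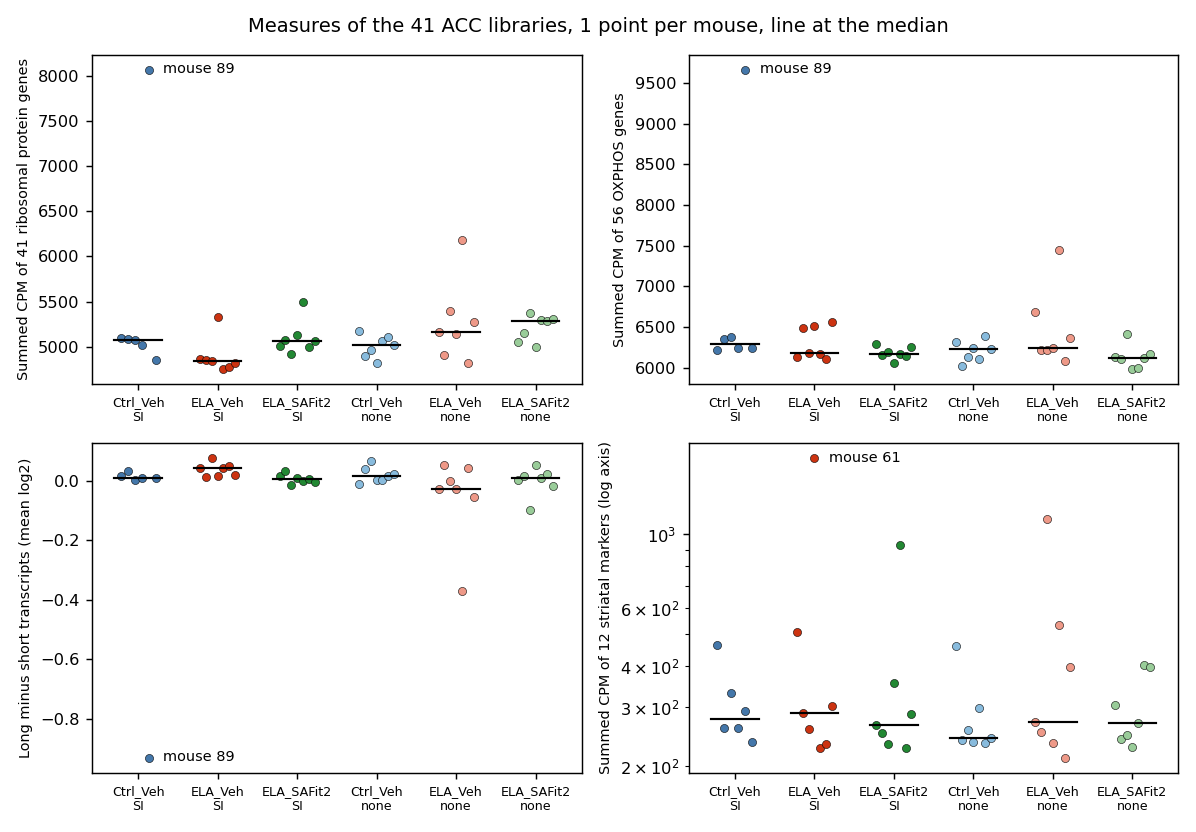
The plot shows 4 measures of the 41 ACC libraries by condition (SI, social interaction; none, no interaction), 1 point per mouse with a line at the median: summed CPM of ribosomal protein genes, summed CPM of oxidative phosphorylation genes, long minus short transcripts in mean log2 units, and summed CPM of striatal markers on a log axis. Mouse 89 reaches 8075 CPM, 9663 CPM and -0.931 in the first 3 panels, and mouse 61 reaches 1699 CPM in the last; axes do not start at 0.

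The comparison asks which ACC transcripts differ between adversity-raised and control mice when both have just met a conspecific. Of 15722 protein-coding genes tested, 0 passed an adjusted p of 0.05 in edgeR's quasi-likelihood test (0.0% of genes), and the smallest Benjamini-Hochberg adjusted p was 0.3386. At an unadjusted p under 0.05, 763 genes were higher in ELA_Veh (4.85% of genes) and 1200 were lower (7.63%). DESeq2 called 2 genes (0.0127%), Gm13694 and Gm13693, near-identical relatives of the splicing factor gene Cwc22 that were listed at 0 in every control and reached 0.364 and 0.316 CPM at most in ELA_Veh, which is too low for a fold change. Much of the unadjusted count came with mouse 89. Without it 409 genes were higher (2.6%) and 325 lower (2.07%), 12.5% of genes in either direction becoming 4.67%, and the smallest adjusted p became 0.9942. Of the 1963 genes, 529 stayed at that threshold with the same sign without mouse 89, 1306 without mouse 61 and 387 without both, where 1.93% of genes were higher and 2.12% lower at that threshold (4.05% in all). Of the 12 genes with the smallest p in each direction, 23 of 24 kept their sign and an unadjusted p under 0.05 without mouse 89. The same number did so without both mice. These 24 were chosen by their p in the same mice, which favours such a result. The groups shared no value in 4 genes that were higher (0.0254% of genes) and 13 that were lower (0.0827%). No single gene below passed the adjusted threshold, and each of the 24 had an edgeR adjusted p of 0.3386. An exact p given with a gene is that of a two-sided permutation test of log2(CPM + 1) over all 1716 regroupings of the 13 mice, or likewise of the 14 without interaction, which can give 0.0005828 at the smallest and is not corrected for the number of genes. Values after ± are standard errors of the log2 difference.

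Among the 12 genes with the smallest p on the higher side, Slmap, Galnt13, Pde8b, Vegfa and Zfp618 had their highest value in mouse 61. Vps54 (ENSMUSG00000020128.16), a subunit of the complex that tethers vesicles returning from endosomes to the Golgi, ran from 34.6 to 40.8 CPM in Ctrl_Veh with a median of 38.0, and from 39.7 to 45.5 CPM in ELA_Veh with a median of 42.7. Of the 7 ELA_Veh mice 5 lay above every control, and the log2 difference was 0.18 ± 0.04 (exact p = 0.003497), or 0.16 without mouse 89. Slmap, a tail-anchored membrane protein of the STRIPAK phosphatase complex, had 82.7, 95.6 and 100.6 CPM as lowest, median and highest control value, and 100, 103.9 and 129.2 CPM in ELA_Veh. Its highest value came from mouse 61, and the difference of 0.19 ± 0.05 was 0.14 without that mouse. Galnt13, which starts O-linked glycan chains on neuronal proteins, gave 0.36 ± 0.09 with mouse 61 at 63.1 CPM and 0.24 without it. Pde8b, a phosphodiesterase that degrades cyclic AMP, gave 0.26 ± 0.07, and 0.18 without mouse 61, whose value was 82.8 CPM.

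Malt1, Gzmm, Ly6c2 and Gca, also among the higher genes, are known from immune cells, while the 24 interferon-stimulated genes tested split into 12 higher and 12 lower with 0 at an unadjusted p under 0.05. Malt1, the paracaspase that relays antigen receptor signals to NF-kappaB, had a median of 11.1 CPM in Ctrl_Veh and 12.97 CPM in ELA_Veh, where 6 of 7 mice exceeded every control. Its difference of 0.30 ± 0.08 (exact p = 0.001166) was 0.21 without mouse 89, the lowest control at 7.38 CPM. Gzmm, the cytotoxic granule protease granzyme M, stayed at or below 0.576 CPM in the controls and had a median of 0.728 CPM in ELA_Veh (0.69 ± 0.19). Ly6c2, a surface antigen of monocytes and vessel cells, had a median of 0.128 CPM in Ctrl_Veh and 1.53 CPM in ELA_Veh with a maximum of 3.48 CPM, a log2 difference of 3.01 ± 0.78 (exact p = 0.04895). ELA_Veh mice spread from control-like values to far above them, with 4 of 7 over every control. Ly6c2 has close paralogs, and how the counting split their reads is uncertain. Gca, a calcium-binding protein of granulocytes, differed by 0.17 ± 0.05.

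The remaining higher genes with the smallest p were Vegfa, described with the vessel genes below, Ldb3, Pbld2 and Zfp618. Ldb3 (ENSMUSG00000021798.15), a PDZ and LIM domain protein known from the Z-disc of muscle, ran from 1.71 to 5.01 CPM in Ctrl_Veh and from 4.37 to 7.59 CPM in ELA_Veh, with medians of 3.60 and 6.50 CPM. The controls fell into a lower and an upper cluster and 6 of 7 ELA_Veh mice lay above both, for a difference of 0.84 ± 0.23 (exact p = 0.004079). Pbld2 had medians of 1.04 and 1.93 CPM (0.82 ± 0.23). Zfp618, a zinc finger gene, had 0.66 ± 0.18 with mouse 61 at 11.2 CPM and 0.44 without it.

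On the lower side, Srprb, Bcap29 and Rnf26 encode proteins of the endoplasmic reticulum. Srprb, the membrane-anchored subunit of the signal recognition particle receptor, had medians of 27.2 CPM in Ctrl_Veh and 23.2 CPM in ELA_Veh, where 6 of 7 mice lay below every control (-0.23 ± 0.06, exact p = 0.004079). Bcap29, which escorts membrane proteins out of the reticulum, ran from 54.0 to 60.7 CPM in Ctrl_Veh and from 45.2 to 54.4 CPM in ELA_Veh, again with 6 of 7 below every control (-0.16 ± 0.04, and -0.14 without mouse 89). Rnf26 (ENSMUSG00000053128.16), a ubiquitin ligase of the same membrane, had 26.5, 31.2 and 34.4 CPM as lowest, median and highest control value and 19.95, 26.3 and 28.0 CPM in ELA_Veh, a difference of -0.31 ± 0.08 (exact p = 0.005828). The groups overlapped, with 4 ELA_Veh mice below every control. No list of reticulum genes was tested.

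The other 9 lower genes have mixed roles. Map4k2 (ENSMUSG00000024948.16), a kinase that feeds into the JNK pathway, ran from 67.4 to 95.6 CPM in Ctrl_Veh and from 63.8 to 74.9 CPM in ELA_Veh, with medians of 79.01 and 67.6 CPM (-0.24 ± 0.06, exact p = 0.01981). Arhgap22, which inactivates the small GTPase Rac, had medians of 8.95 and 5.94 CPM (-0.65 ± 0.17). Mvd (ENSMUSG00000006517.6), the decarboxylase that makes isopentenyl diphosphate for sterols, had 14.4, 15.7 and 20.5 CPM in Ctrl_Veh and 11.4, 13.9 and 14.5 CPM in ELA_Veh (-0.26 ± 0.07, exact p = 0.001166). The highest control was mouse 89 and the lowest ELA_Veh value mouse 61. The difference was -0.18 without the former and -0.22 without the latter. Sdhaf4, an assembly factor of succinate dehydrogenase, and Hpdl, a mitochondrial dioxygenase-like protein, were lower in all 7 ELA_Veh mice than in any control. Sdhaf4 lay between 9.50 and 11.08 CPM in ELA_Veh and between 11.08 and 16.8 CPM in Ctrl_Veh, so the groups only just separate, and Hpdl between 0.544 and 1.17 CPM against 1.195 and 1.69 CPM. Bfsp2, a beaded filament protein of the lens, had a median of 0.725 CPM in Ctrl_Veh and 0.0910 CPM in ELA_Veh (-2.13 ± 0.55). AI413582 had mouse 89 as its highest control at 41.4 CPM, with the next at 29.96 CPM, and gave -0.26 ± 0.06, or -0.15 without that mouse. Dmrtc1a gave -0.37 ± 0.10, and -0.29 without mouse 89. These 2 complete the 12 together with Gm14434, whose rank came from mouse 89 alone. Gm14434 had 23.6 CPM in mouse 89 and was listed at 0 in the other 5 controls.

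**Figure D2:**
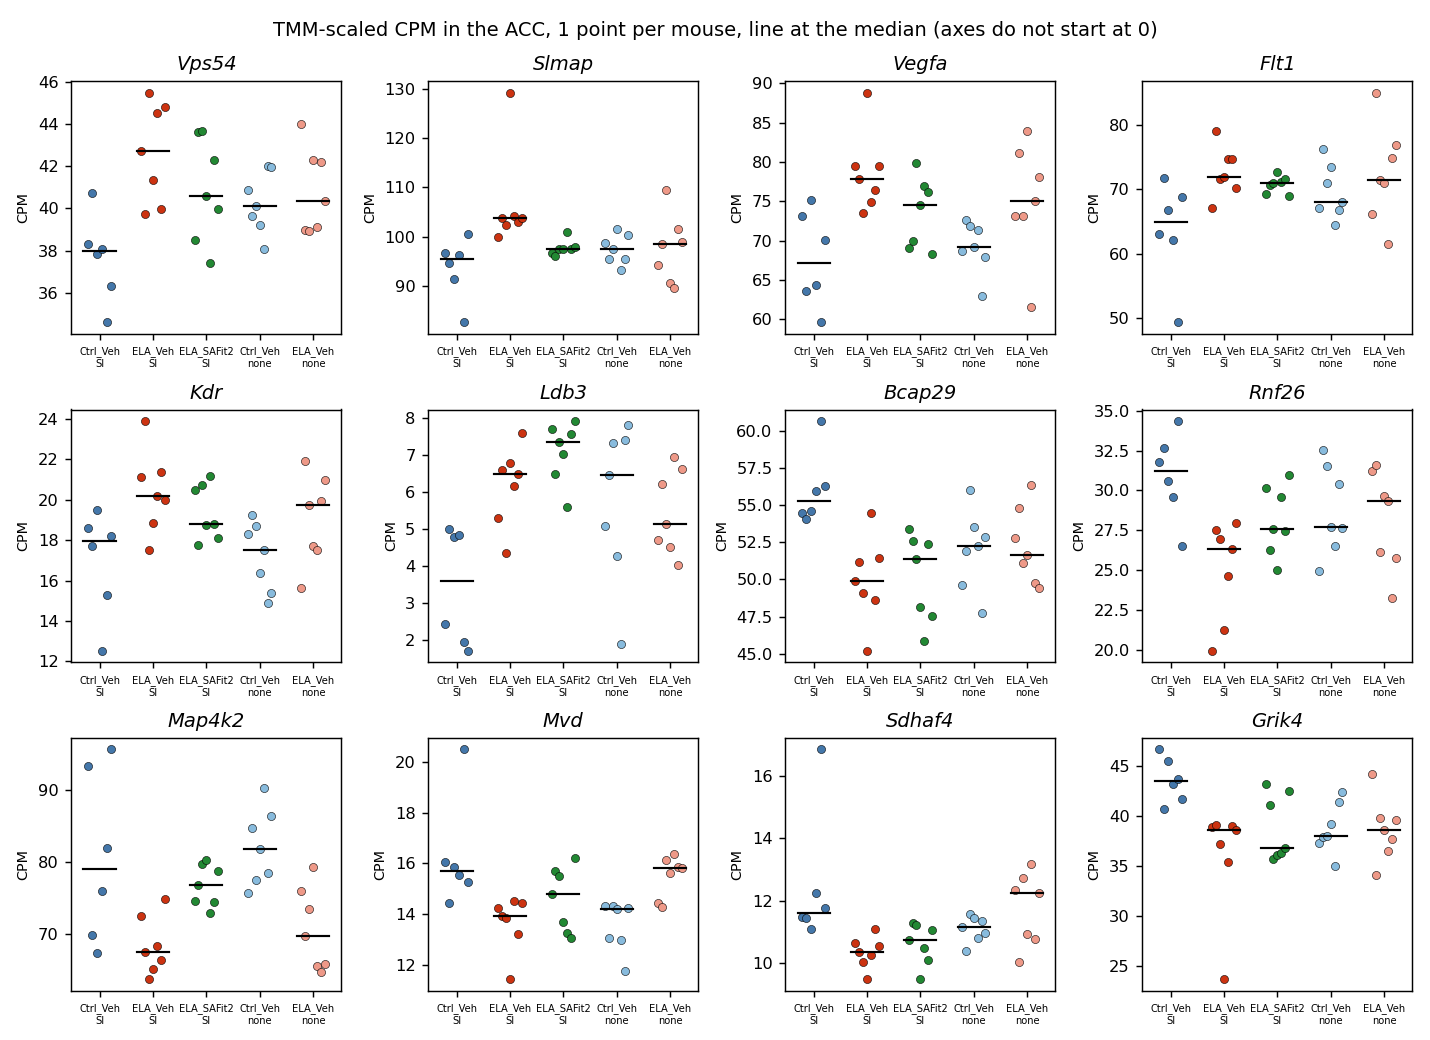
TMM-scaled CPM of 12 genes in 5 ACC conditions (SI, social interaction; none, no interaction), 1 point per mouse, with a line at the median and axes that do not start at 0. In the Ctrl_Veh and ELA_Veh columns after social interaction the medians go from 38.0 to 42.7 for Vps54, from 31.2 to 26.3 for Rnf26 and from 43.4 to 38.5 for Grik4, where the 2 groups share no value.

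The same mice gave 4 other regions, the ventral hippocampus (labelled HC), the dorsomedial thalamus (DMT), the medial prefrontal cortex (mPFC, labelled PFC) and the basolateral amygdala (BLA). These libraries are a second measurement of the same animals, with their own dissection and library, and not further mice. Of the 24 genes with the smallest p in the ACC, 11 had the same sign in all 4 regions and 12 reached the unadjusted threshold on the same side in at least 1, 5 of them in 3 or more. Within each region, in either direction, the share of all genes at that threshold was 4.18% (mPFC), 3.23% (BLA), 2.97% (DMT) and 5.36% (HC). In the mice without interaction, 5 of the 24 had the ACC's sign in all 4 regions. On that side 3 reached the threshold in at least 1 region, and 0 in 3 or more. There the share of all genes within each region, in either direction, was 4.34% (mPFC), 3.42% (BLA), 3.07% (DMT) and 4.29% (HC). Counts over several regions were not made for all genes, so those of the 24 have no matching share.

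Ly6c2, Ldb3 and Rnf26 reached the threshold in all 4 regions. Ly6c2 was higher by 2.50 ± 0.74 (mPFC), 2.60 ± 0.73 (BLA), 2.78 ± 0.81 (DMT) and 2.91 ± 0.71 (HC) on the log2 scale, close to the 3.01 of the ACC. Ldb3 was higher by 0.96 ± 0.25 (mPFC), 1.09 ± 0.26 (BLA), 0.47 ± 0.13 (DMT) and 0.71 ± 0.20 (HC). Rnf26 was lowest against the controls in the mPFC, at -0.34 ± 0.07, with -0.28 ± 0.09 (BLA), -0.20 ± 0.07 (DMT) and -0.22 ± 0.07 (HC). In the mice without interaction these genes reached it in 0 of the 4 regions, with values between 0.53 and 1.29 for Ly6c2, -0.06 and 0.07 for Ldb3, and -0.10 and 0.01 for Rnf26.

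Map4k2 and Bfsp2 followed in 3 regions each. Map4k2 was -0.35 ± 0.07 (mPFC), -0.14 ± 0.05 (DMT) and -0.21 ± 0.07 (HC), with -0.19 ± 0.10 in the BLA, where it missed the threshold. Arhgap22 was lower in all 4 regions, at -0.78 ± 0.25 in the mPFC and between -0.45 and -0.27 elsewhere. Without interaction Map4k2 was at the threshold in the DMT (-0.15) and the HC (-0.18) too. Several of the 24 genes were near 0 outside the ACC. Mvd lay between -0.01 and 0.11 in the 4 other regions, Slmap between -0.03 and 0.06, and Malt1 between -0.08 and 0.07. Whether the ACC differs from those regions in these genes was not tested.

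**Figure D3:**
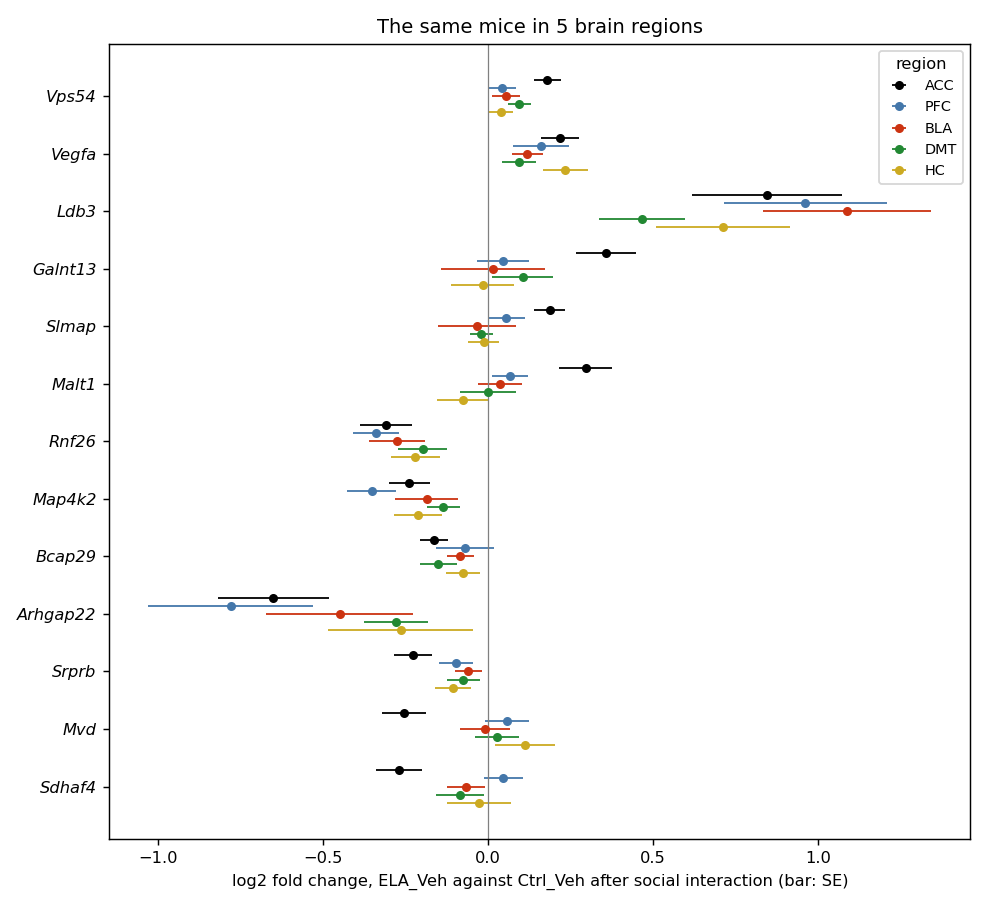
Log2 fold change of ELA_Veh against Ctrl_Veh after social interaction (points, with the SE as bars) for 13 genes in the ACC and 4 other regions of the same mice (PFC, medial prefrontal cortex; BLA; DMT; HC, ventral hippocampus). Ldb3, Vegfa, Rnf26, Map4k2 and Arhgap22 lie on the same side of 0 in all 5 regions, whereas Mvd is at -0.26 in the ACC and between -0.01 and 0.11 elsewhere.

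Vegfa (ENSMUSG00000023951.19), the main vascular growth factor, which neurons and glia secrete to act on vessels, was among the 12 higher genes. It had 59.6, 67.2 and 75.1 CPM as lowest, median and highest control value and 73.6, 77.8 and 88.8 CPM in ELA_Veh, with 5 of 7 mice above every control (0.22 ± 0.06, exact p = 0.001748, and 0.18 without mouse 89). Both of its endothelial receptors were also higher at an unadjusted p under 0.05, with and without mouse 89. Kdr (VEGF receptor 2) had medians of 18.0 and 20.2 CPM (0.27 ± 0.09, exact p = 0.01282), with 5 of 7 ELA_Veh mice above every control. Flt1 (VEGF receptor 1) had medians of 64.9 and 71.9 CPM (0.19 ± 0.06, exact p = 0.007576), and 0.13 without mouse 89. The angiopoietin receptor gene Tek gave 0.17 with all libraries and 0.21 without mouse 89, but 0.08 without mouse 57, the lowest control at 7.16 CPM. Cldn5, the tight junction claudin of brain vessels, went the other way at -0.21 (exact p = 0.1416), with mouse 89 as the highest control at 29.7 CPM, and gave -0.09 without it. Among the 10 endothelial markers tested 6 were higher and 4 lower, against 50.6% and 49.4% of all genes, and their summed level was 290.8 to 316.1 CPM in ELA_Veh against 271.3 to 313.6 CPM in Ctrl_Veh, so the groups overlap almost fully. In the 4 other regions Vegfa, Kdr, Flt1 and Tek all had the same sign as in the ACC. Vegfa lay between 0.09 and 0.23 there, Kdr between 0.13 and 0.29, Flt1 between 0.06 and 0.14 and Tek between 0.03 and 0.15. They reached that threshold in 2, 1, 1 and 0 of the 4 regions. Cldn5 had the ACC's sign in 2, with 0 at it. In the mice without interaction that sign held in 3 (Vegfa), 2 (Kdr), 1 (Flt1), 2 (Tek) and 1 (Cldn5) of the 4 regions. There 0 reached the threshold on that side. In the ACC of the mice without interaction all 10 endothelial markers were higher, against 52.4% of all genes. None of these 10 had an unadjusted p under 0.05. When mice 89 and 69 were left out, 9 were higher there, 2 of them at that threshold, where 431 of all 15722 genes were.

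Some genes of the stress hormone system had an unadjusted p under 0.05, where 12.5% of all genes did. Fkbp5, whose product is the target of SAFit2 and a feedback regulator of the glucocorticoid receptor, had a median of 25.3 CPM in Ctrl_Veh and 26.7 CPM in ELA_Veh, with -0.19 ± 0.15 (exact p = 0.9452). That sign rested on mouse 57, a control at 66.8 CPM, since without it the difference was 0.17. The glucocorticoid receptor gene Nr3c1 (0.15) and the mineralocorticoid receptor gene Nr3c2 (0.22) were higher at that threshold and the chaperone gene Hsp90ab1 lower (-0.09) with all libraries, but 0 of the 9 genes of this list kept an unadjusted p under 0.05 without mouse 89. Nr3c1 ran from 76.6 to 121.2 CPM in Ctrl_Veh and from 105.4 to 122.1 CPM in ELA_Veh. Of 18 glucocorticoid-induced genes, 9 were higher and 9 lower, with 1 at an unadjusted p under 0.05, the glycerol-phosphate dehydrogenase gene Gpd1 (-0.11). Without mouse 89 it was 8 higher and 10 lower with 3 lower at that threshold, where 2.07% of all genes were. Without mice 89 and 61 it was 7 and 11 with 0. The 4 genes tested of the corticotropin-releasing hormone system were 2 higher and 2 lower with a median of 0.02, and 4 higher with a median of 0.15 without mouse 89, with 0 at that threshold in both. The vasopressin receptor gene Avpr1a gave 0.87 (exact p = 0.1026) with mouse 61 at 1.13 CPM and 0.41 without it. The oxytocin receptor gene Oxtr gave 0.00 (exact p = 0.9551).

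Immediate early genes, the first transcripts that active neurons induce, were not distinguishable between the groups after the encounter. Of 31 tested, 21 were higher and 10 lower in ELA_Veh, and only Klf4 had an unadjusted p under 0.05, as a lower gene (-0.42, and -0.15 without the control mouse 57). Fos ran from 4.11 to 25.4 CPM in Ctrl_Veh and from 10.1 to 30.97 CPM in ELA_Veh, with medians of 18.7 and 20.2 CPM (0.30 ± 0.49, exact p = 0.451). Arc gave 0.38 ± 0.47, Npas4 0.35 ± 0.41, Egr1 0.17 ± 0.25 and Fosb 0.07 ± 0.21. Without control mouse 17, Fos gave 0.10, Arc 0.20, Npas4 0.17 and Egr1 0.05. Fosb changed sign without mouse 89 (-0.02), and also without control mouse 17 or ELA_Veh mouse 59. With SEs of this size, differences as large as the fitted ones in Fos, Arc and Npas4 were not detectable with these mice. In the mice without interaction 29 of the 31 were higher in ELA_Veh, against 52.4% of all genes, with 0 at an unadjusted p under 0.05. The list median was 0.194 there and 0.065 after interaction. When mice 89 and 69 were left out, 30 were higher without interaction, with a median of 0.18.

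Genes of neuronal excitability leaned higher in ELA_Veh, and the lean shrank without mouse 89. Of 19 GABA signalling genes 17 were higher, 5 of them at an unadjusted p under 0.05, against 4.85% of all genes, with a list median of 0.105 against 0.002 over all genes. Without mouse 89 it was 14 of 19 with 3 (2.6% of all genes) and a median of 0.055. Without mice 89 and 61 it was 15 of 19 with 0 and 0.038. The GABA-synthesising enzyme gene Gad2 ran from 122.0 to 183.6 CPM in Ctrl_Veh and from 166.4 to 432.3 CPM in ELA_Veh (0.38, exact p = 0.1358), mouse 89 being the lowest control and mouse 61 the highest ELA_Veh value. Without mouse 61 its difference was 0.12, and the vesicular GABA transporter gene Slc32a1 gave 0.27 with it and 0.08 without it. Of 28 potassium channel genes 23 were higher, with 6 at an unadjusted p under 0.05, 2 without mouse 89 and 0 without mice 89 and 61. Kcnd2, an A-type channel subunit of dendrites, exceeded every control in 6 of 7 ELA_Veh mice (medians of 91.4 and 96.9 CPM, 0.16 ± 0.05, and 0.11 without mouse 89). Of 27 glutamate receptor and transporter genes 21 were higher, with 5 higher and 1 lower at that threshold, and 1 and 1 without mouse 89. Of 12 serotonin receptor genes 11 were higher, against 50.6% of all genes by sign, with 0 at that threshold. Without interaction the lists leaned the other way, with 15 of 19 GABA signalling genes, 24 of 27 glutamate genes and 22 of 28 potassium channel genes lower, 1, 1 and 2 of them at that threshold, where 1.86% of all genes were. Without mice 89 and 69 these were 15, 22 and 20 lower with 3, 2 and 1, where 386 of all 15722 genes were.

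Grik4, which encodes a high-affinity kainate receptor subunit, was the 1 glutamate gene on the lower side at that threshold. It ran from 40.7 to 46.6 CPM in Ctrl_Veh and from 23.7 to 39.1 CPM in ELA_Veh, with no overlap, at -0.27 ± 0.08 (exact p = 0.001166). The lowest value was mouse 61, and the difference was -0.20 without it and -0.27 without mouse 89. In the mice without interaction Grik4 gave 0.00 (exact p = 0.9411, medians of 37.9 and 38.6 CPM), and 3 of the 4 other regions gave the same sign with 0 at the threshold. Rab3b, a synaptic vesicle GTPase and a gene named after its values were seen, likewise showed no overlap, from 51.9 to 60.3 CPM in Ctrl_Veh and from 40.6 to 48.3 CPM in ELA_Veh (-0.31, and -0.31 without mouse 89).

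Ribosomal protein and respiratory chain genes gave the largest list counts, and both moved with mouse 89. All 41 cytosolic ribosomal protein genes were lower in ELA_Veh, 33 at an unadjusted p under 0.05 against 7.63% of all genes, with a list median of -0.18. Without mouse 89 the numbers were 36 lower, 3 at that threshold (2.07% of all genes) and a median of -0.05. Rplp0, a stalk protein of the large subunit, stayed below every control in all 7 ELA_Veh mice, at 96.8 to 108.5 CPM against 108.6 to 157.1 CPM, or up to 112.7 CPM without mouse 89 (-0.20, and -0.10 without it). Paralogs and pseudogenes can take reads of ribosomal protein genes, so single members are uncertain. All 56 nuclear oxidative phosphorylation genes were lower, 25 at that threshold, with a median of -0.15. Without mouse 89, 30 were lower and 26 higher, 0 at that threshold. Without interaction the direction was the opposite, with 40 of 41 ribosomal protein genes higher, 0 at that threshold. Of 56 oxidative phosphorylation genes 51 were higher there, 2 at it (2.28% of all genes). There, without mice 89 and 69, it was 34 higher with 3 and 45 higher with 5, where 431 of all 15722 genes were. Of 13 mitochondrially encoded genes 8 were lower, 2 of them at that threshold, 0 without mouse 89 and 2 without mice 89 and 61.

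Transcript length tracked the difference in the same way. Over 5 equal groups of genes by transcript length, the median log2 difference went from -0.106 in the shortest through -0.045, -0.003 and 0.029 to 0.086 in the longest. Without mouse 89 it ran only from -0.012 to 0.013. In the mice without interaction the order was the opposite, from 0.043 in the shortest group to -0.038 in the longest, and from 0.017 to -0.011 when mouse 69 was left out too. The part of RNA quality in these values was not tested, as the labels give no RNA integrity number per sample.

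**Figure D4:**
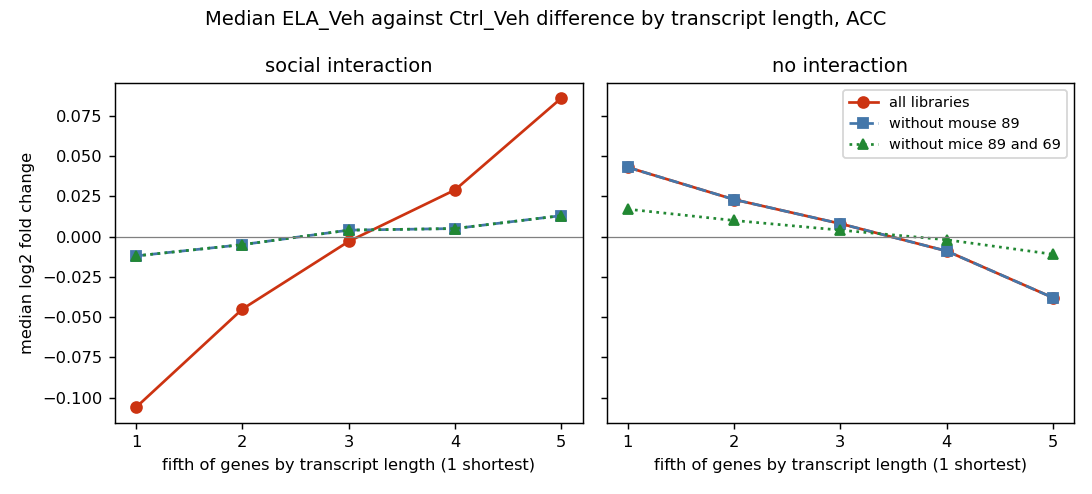
Median log2 fold change of ELA_Veh against Ctrl_Veh in 5 equal groups of genes by transcript length (1 shortest, 5 longest), after social interaction (left) and without interaction (right), with all libraries and with mice 89 or 89 and 69 left out. With all libraries the line climbs from -0.106 to 0.086 on the left and descends from 0.043 to -0.038 on the right, and without mouse 89 the left line runs from -0.012 to 0.013.

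Sterol synthesis genes were looked at after Mvd was seen among the lower genes, so their count is a description of a list chosen after the values. Of 23 genes from acetyl-CoA to cholesterol, 21 were lower in ELA_Veh, 8 at an unadjusted p under 0.05 (7.63% of all genes), with a median of -0.11. Without mouse 89 it was 20 lower with 7 (2.07% of all genes) and the same median, and without mice 89 and 61 it was 19 lower with 3 (2.12%) and -0.08. The sterol methyl oxidase gene Msmo1 had medians of 74.9 and 65.2 CPM (-0.17), the farnesyl diphosphate synthase gene Fdps 53.7 and 46.98 CPM (-0.23), and the sterol dehydrogenase gene Nsdhl 27.2 and 24.4 CPM (-0.15). The summed level was 1417 to 1765 CPM in ELA_Veh and 1664 to 1804 CPM in Ctrl_Veh, with mouse 61 as the lowest value and the next at 1648 CPM. In the mice without interaction 13 were higher and 10 lower, with a median of 0.00. Oligodendrocytes make much of the brain's sterol, and the 14 oligodendrocyte markers were lower after interaction, all 14 of them with 0 at an unadjusted p under 0.05 and a median of -0.26, while all 14 were higher without interaction (0.28). Their summed level varied widely within groups, from 1642 to 5237 CPM in ELA_Veh and from 2882 to 7326 CPM in Ctrl_Veh, and its part in the sterol values was not tested.

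Markers of microglia were mostly lower and those of neighbouring areas mostly higher. Of 14 microglia and macrophage markers 13 were lower, 4 at an unadjusted p under 0.05, against 7.63% of all genes. Without mouse 89 the same count was 13, with 1 lower and 1 higher at that threshold, against 2.07% and 2.6% of all genes. Among the 4 were Aif1, the microglial calcium-binding protein IBA1 (medians of 9.05 and 4.34 CPM, -0.80, exact p = 0.03555), and the complement gene C1qb (-0.25). Without mouse 89 Aif1 gave -0.66 and C1qb -0.16. The summed level was 265.5 to 314.9 CPM in ELA_Veh and 288.4 to 372.3 CPM in Ctrl_Veh, where mouse 89 was the highest and the next stood at 340.6 CPM. Aif1 lay lower in all 4 other regions, 3 of them at that threshold. The complement genes C1qa, C1qb and C1qc had the ACC's sign in 2, 3 and 3 of the 4, with 0 at it. In the mice without interaction Aif1 was lower in the 4 regions too, between -0.47 and -0.27, with 0 at it. In their ACC 10 of the 14 markers were higher and 4 lower, 0 at that threshold. After interaction 6 of 12 MHC class I genes were higher and 6 lower. At that threshold 3 were lower, against 7.63% of all genes, and 0 lower and 1 higher without mouse 89. H2-D1 had medians of 40.99 and 26.1 CPM (-0.55, exact p = 0.03846, and -0.39 without mouse 89). Class I genes are polymorphic and alike in sequence, so their counts in outbred mice are uncertain.

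All 12 striatal markers were higher, 7 at an unadjusted p under 0.05, where 4.85% of all genes were (1.93% without mice 89 and 61). Without mice 89 and 61 they were 6 higher and 6 lower, 0 at that threshold. Drd2, the dopamine D2 receptor gene, had 57.3 CPM in mouse 61 and a median of 3.25 CPM in ELA_Veh, against 1.88 CPM in Ctrl_Veh. All 7 lateral septum markers were higher, 4 at that threshold, and 6 of 7 with 0 at it without both mice. The neuropeptide gene Nts gave 1.97 (exact p = 0.9481) with mouse 61 at 19.1 CPM and -0.42 without it. Of 10 general inhibitory neuron markers 8 were higher with 4 at that threshold, and all 10 were higher with 1 at it without both mice, with a median of 0.07. Upper layer, deep layer and general excitatory markers gave 0 genes at that threshold in either direction. In the mice without interaction all 12 striatal markers (median 0.755) and 6 of 7 lateral septum markers were higher, with 0 at that threshold. When mice 89 and 69 were left out, these were 12 (median 0.688) and 5. Mouse 37, in ELA_Veh without interaction, held 1110 CPM of the striatal markers. The other ELA_Veh mice without interaction held 211.5 to 532.4 CPM and their controls 234.1 to 459.7 CPM. These lists were not counted without mouse 37.

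Agreement with the same contrast in the mice without interaction was tested over all genes and then gene by gene. Those mice gave 0 genes at an adjusted p of 0.05 in edgeR (smallest 0.5039), 651 genes at an unadjusted p under 0.05 (4.14%, of them 2.28% higher and 1.86% lower, beside 52.4% and 47.6% by sign alone), and 3 DESeq2 calls (0.0191%). The 2 contrasts share no animals, but their spread was estimated in 1 model. Of the 1963 genes after interaction, 653 (33.27%) had the same sign without interaction, 40.24% of those higher and 28.83% of those lower, against 40.15% of all genes. Spearman's correlation between the 2 sets of log2 fold changes was -0.14 across 15722 genes and -0.442 across the 6149 genes over a log2 CPM of 5. Genes are not independent replicates, and these values describe the 2 sets. The opposition went with mice 89 and 69. Without mouse 89, 56.54% of 734 genes and 50.15% of all genes had the same sign and the correlation was 0.055, and without mice 89 and 69 the values were 58.6% (of the 5.1% of genes then at the threshold), 52.49% and 0.083. Without mouse 61 they were 27.53%, 38.19% and -0.212, and without mice 89 and 61 they were 46.0%, 47.25% and -0.029. Across the 6149 genes over a log2 CPM of 5 the correlation was -0.005 without mouse 89 and 0.097 without mice 89 and 69. It was -0.505 without mouse 61 and -0.103 without mice 89 and 61.

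**Figure D5:**
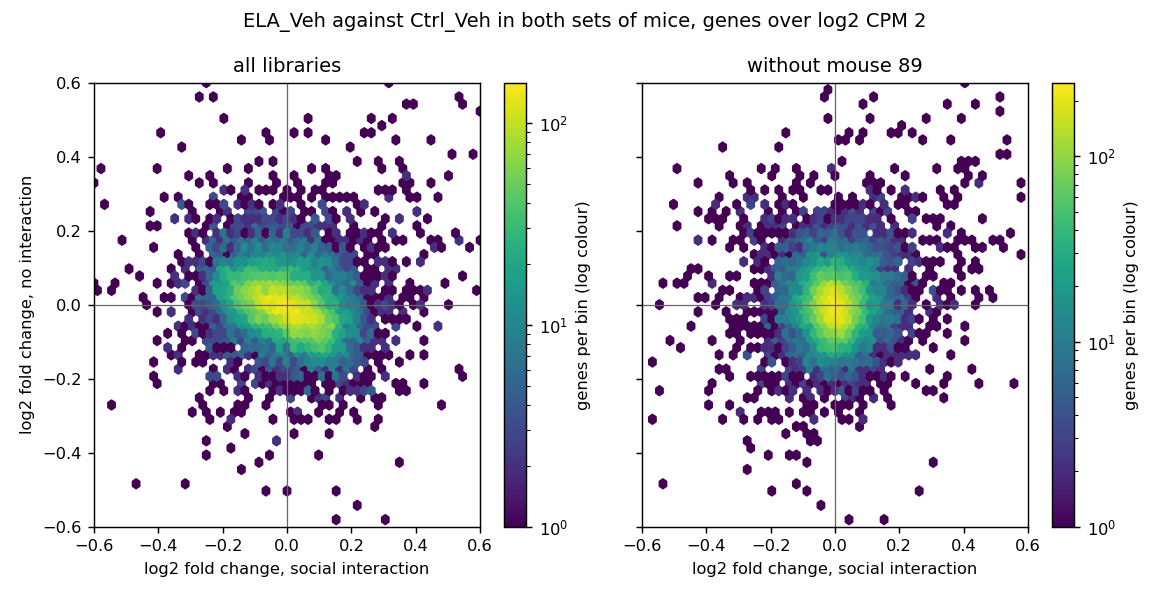
Log2 fold change of ELA_Veh against Ctrl_Veh after social interaction (x axis) and without interaction (y axis) for genes over a log2 CPM of 2, as hexagons coloured on a log scale by the number of genes, with all libraries (left) and without mouse 89 (right). The cloud tilts downward with all libraries, where the Spearman correlation over all genes is -0.14, and not without mouse 89, where it is 0.055.

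For the 24 genes with the smallest p after interaction, 9 of the 12 higher genes and 8 of the 12 lower genes had the same sign without interaction, with 1 in each direction at an unadjusted p under 0.05. Those are Vegfa (0.12) and Map4k2 (-0.22). Map4k2 had medians of 81.8 and 69.8 CPM without interaction, close to the 79.01 and 67.6 CPM after it (exact p without interaction = 0.004079), and its 2 differences were -0.02 ± 0.09 apart. Vegfa had medians of 69.2 and 75.0 CPM without interaction, and its 2 differences were 0.10 ± 0.08 apart. The test of the difference between the 2 contrasts had an unadjusted p under 0.05 for 9 of the 12 higher and 10 of the 12 lower genes, against 11.6% of all genes, which the choice of these genes by one of the contrasts favours. Vps54 (0.02 without interaction), Slmap (0.00), Ldb3 (-0.07) and Bcap29 (0.01) were near 0 there. For Ldb3 the control median without interaction was 6.47 CPM, close to the 6.50 CPM of ELA_Veh after it. The controls with interaction spread over a lower and an upper cluster, and which group's level moved was not tested.

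A test of the difference between the contrasts gave 0 genes at an adjusted p of 0.05 in edgeR (smallest 0.2688, for Mvd), 1816 at an unadjusted p under 0.05 (11.6%, and 5.72% without mouse 89), and 1 in DESeq2 (0.00636%), Mvd again at an adjusted p of 0.03833. Without mouse 89 DESeq2 called 0. Mvd was lower after interaction (-0.26) and higher without it (0.19, exact p = 0.001748), with medians of 15.7 and 13.9 CPM after interaction and 14.2 and 15.8 CPM without it, for a difference of -0.45 ± 0.09. Serpinb6a, an intracellular protease inhibitor, Nudt1, which clears oxidised nucleotides, and Arhgdia, a GDP dissociation inhibitor, went the same way, at -0.36, -0.70 and -0.22 between the contrasts. Pcgf5, a Polycomb subunit, and Plppr5, a membrane protein of neurites, went the other way, at 0.36 and 0.22. All 6 had an unadjusted p under 0.05 in each contrast with all libraries, and Serpinb6a not after interaction without mouse 89 (-0.09).

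Among genes at an unadjusted p under 0.05 in both sets, 28 of 72 had the same sign, 19 higher and 9 lower. Of all 15722 genes, 12.5% reached the threshold after interaction and 4.14% without it. Without mouse 89, when 4.67% and 8.34% did, it was 42 of 66. Whether more genes reached it in both sets than these shares alone would give was not tested. The same sign at that threshold in both sets held for 15 genes with all libraries, without mouse 89 and without mice 89 and 69. These 15 were named after their values were seen. They include Map4k2, Vegfa, the muscle alpha-actinin gene Actn3 (0.63 after interaction and 0.76 without), the glial transcription factor gene Rfx4 (0.24 and 0.20), the GABA-B receptor auxiliary subunit gene Kctd8 (0.31 and 0.29) and the spliceosome GTPase gene Eftud2 (-0.09 and -0.08). Cd6, a T cell surface receptor, led the contrast without interaction at 1.63 (exact p = 0.004079) and gave 0.74 after interaction. Of the 7 Cwc22-like genes tested, 7 were higher at an unadjusted p under 0.05 in edgeR without interaction (2.28% of all genes) and 0 after it, where DESeq2 called Gm13694 and Gm13693. Without interaction their summed level was 598.9 and 617.1 CPM in 2 ELA_Veh mice, against 21.73 to 24.86 CPM in the other 5 ELA_Veh mice and 21.13 to 25.91 CPM in Ctrl_Veh, so the count rests on those mice. Abcb1b, a drug efflux pump with a close paralog, was lower in both sets, at -0.88 after interaction (exact p = 0.2331, and -0.39 without control mouse 17) and -1.05 without it (exact p = 0.02855). Best1, an anion channel, gave 0.01 after interaction and -1.19 without it (exact p = 0.03322).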

How the data were processed

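Bulk poly-A RNA-seq libraries of the ACC were analysed from the estimated counts that the authors made with salmon, merged to genes and deposited for all samples. The submitters' notes also name STAR, DESeq2 and the GRCm39 build. Estimated counts were rounded (12.12% were not whole). Of 56691 genes, 52073 matched GENCODE M21 and 978 were typed through RefSeq symbols, and 3640 without a type were left out. The filter on low values kept 15722 protein-coding genes whose counts summed to 100 or more over the ACC and were above 0 in 6 or more libraries. All 41 ACC libraries, in 6 conditions, were fitted with edgeR 4.0.16 (quasi-likelihood test, TMM scaling, Benjamini-Hochberg adjustment) in R 4.3.3, and again with DESeq2 1.42.0. Other regions were fitted in the same way. The code was tested on simulated data. CPM are TMM-scaled. Lower depth widens the counting error of scarce genes.

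Named genes are the 12 with the smallest p in each direction after interaction, the 6 of the difference between the contrasts, 3 in each direction without interaction, 14 study-related genes, and up to 4 members of each list. The comparison and its lists were chosen with earlier results of these data known. Leaving out mice 89 and 69, leaving out mice 89 and 61, DESeq2 without mouse 89, and the sterol list were chosen after seeing the data. Alternatives were DESeq2, other gene filters, fewer conditions in the fit and leaving out each mouse. Some named genes are not reported here. Figures used Matplotlib 3.10.9.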

Additional observations from a re-analysis of the deposited data

Results flagged for a closer look

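Of 146 sets of values (a gene or a summed measure in 1 group) examined, 47 had a sample far from the others by Dixon's criterion, which chance flags in about 1 of 20. Most belonged to 2 libraries.

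Mouse 89 (Ctrl_Veh) was the extreme control in the long-minus-short value (-0.931), in summed ribosomal protein genes (8075 CPM) and in summed oxidative phosphorylation genes (9663 CPM). It was the highest control for AI413582 (41.37 CPM), Bcap29 (60.65 CPM), Mvd (20.5 CPM), Sdhaf4 (16.84 CPM), Gm14434 (23.63 CPM), Arhgdia (343.8 CPM), Cldn5 (29.71 CPM), Npy (78.35 CPM), Rps21 (120.7 CPM), Rplp0 (157.1 CPM) and Fdps (69.28 CPM). It was the lowest control for Malt1 (7.375 CPM), Gad2 (122.0 CPM) and Kcnd2 (70.47 CPM).

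Mouse 61 (ELA_Veh) was the extreme adversity-raised mouse in summed markers of striatal neurons (1699 CPM), lateral septum (172.4 CPM), choroid plexus (15.4 CPM) and inhibitory neurons (1361 CPM), in summed ribosomal protein genes (5323 CPM) and in summed sterol synthesis genes (1417 CPM). Its value was the highest of its group for Slmap (129.2 CPM), Galnt13 (63.06 CPM), Pde8b (82.77 CPM), Vegfa (88.84 CPM), Zfp618 (11.21 CPM), Fkbp5 (34.9 CPM), Nr3c2 (50.68 CPM), Gad2 (432.3 CPM), Slc32a1 (137.9 CPM), Gad1 (471.8 CPM), Kcnd2 (110.7 CPM), Nts (19.12 CPM), Drd2 (57.29 CPM), Prdm12 (6.528 CPM) and Avpr1a (1.13 CPM), and the lowest for Mvd (11.42 CPM) and Grik4 (23.68 CPM).

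Among the other mice, the control mouse 57 stood apart for Fkbp5 (66.77 CPM) and Tek (7.158 CPM). In ELA_Veh, mouse 91 stood apart for Bfsp2 (0.6128 CPM) and Aif1 (10.32 CPM), mouse 21 for Arhgap22 (8.14 CPM), mouse 93 for Gm14434 (0.07884 CPM) and mouse 53 for Nudt1 (2.212 CPM).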

How the results depend on the processing

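The limits are the small groups, the single libraries named above and depth, which leaves genes under about 1 CPM with wide errors. No paired analysis was possible because each replicate number is a different mouse and the conditions share none. For counts of calls, the cause of a change was not tested unless the setting itself uses fewer samples.

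At an adjusted p of 0.05 edgeR called 0 genes in each comparison. DESeq2 called 2 after interaction, 3 without it and 1 for the difference, and 2, 6 and 0 without mouse 89. Leaving out each mouse gave 0 genes after interaction and 0 to 1 without it (1 without mouse 65).

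The counts at an unadjusted p under 0.05 after interaction, 763 higher and 1200 lower, were 288 and 347 in a fit of the 13 vehicle libraries after interaction alone, 489 and 690 with the 20 libraries after interaction, 505 and 792 with the 27 vehicle libraries, 438 and 364 without mice 89 and 69, 304 and 333 without mice 89 and 61, and 407 and 320 in DESeq2 without mouse 89. Leaving out each mouse gave 409 (mouse 89) to 1029 higher and 325 (mouse 89) to 1503 lower. Without interaction the counts of 359 and 292 were 543 and 529 with the 21 libraries without interaction, 593 and 719 without mouse 89, 661 and 809 without mice 89 and 61, and 562 and 759 in DESeq2 without mouse 89, and leaving out each mouse of that contrast gave 294 to 490 and 202 (mouse 69) to 435. For the difference, 795 and 1021 became 466 and 661 with the 27 vehicle libraries, 351 and 316 without mice 89 and 69, 553 lower without mice 89 and 61, and 481 and 423 in DESeq2 without mouse 89, with 451 to 1115 and 448 to 1328 on leaving out each mouse (mouse 89 lowest in both).

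The share of genes with the same sign in both sets was 58.6% without mice 89 and 69, 46.0% without mice 89 and 61 and 55.85% in DESeq2 without mouse 89, and 27.53% to 56.54% on leaving out each mouse. Over all genes it was 52.49%, 47.25% and 50.14%, and 38.02% to 50.15%. Spearman's correlation was 0.083, -0.029 and 0.053, -0.085 with genes of every type, and -0.212 to 0.055 on leaving out each mouse.

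Among the named genes followed through the alternatives, 5 changed sign. Gm14434 was 1.858 without mouse 89, 1.855 without mice 89 and 69, 2.026 without mice 89 and 61 and 1.029 in DESeq2 without mouse 89. Fkbp5 was 0.173 without mouse 57. Fosb was -0.018 without mouse 89, with mouse 69 left out too and in DESeq2 without mouse 89, -0.015 without mouse 59 and -0.013 without mouse 17 and without mice 89 and 61. Nts was -0.423 in DESeq2 and -0.424 without mouse 61, without mice 89 and 61 and in DESeq2 without mouse 89. Prdm12 was -0.133 in DESeq2, -0.098 without mouse 61, -0.153 without mice 89 and 61 and -0.185 in DESeq2 without mouse 89. On leaving out each mouse these genes ran from -9.763 to 1.858 (Gm14434), -0.273 to 0.173 (Fkbp5), -0.018 to 0.167 (Fosb), -0.424 to 2.175 (Nts) and -0.098 to 3.01 (Prdm12). The other 1556 values of the genes followed kept their direction and their side of the adjusted threshold. Gm13694 and Gm13693 were not among the genes followed, and both crossed that threshold after interaction, as DESeq2 called them and edgeR did not.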

Other observations

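In the 7 mice whose dams received SAFit2 and that also met an unfamiliar mouse, the median level of several of the genes described above lay between those of Ctrl_Veh and ELA_Veh or near one of them. These are descriptions with no test. Vps54 had a median of 40.6 CPM there (38.0 in Ctrl_Veh, 42.7 in ELA_Veh), Slmap 97.6 CPM (95.6, 103.9), Ly6c2 0.204 CPM (0.128, 1.53) and Rnf26 27.6 CPM (31.2, 26.3). Map4k2 had 76.8 CPM (79.01, 67.6) and Mvd 14.8 CPM (15.7, 13.9). Vegfa, at 74.5 CPM (67.2, 77.8), Bfsp2, at 0.106 CPM (0.725, 0.0910), and Ldb3, at 7.36 CPM (3.60, 6.50), lay nearer to ELA_Veh or beyond it.

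The 4 genes whose levels were above every control in all 7 ELA_Veh mice were named after their values were seen. They are the kinase gene Cdk17 (186.3 to 197.2 CPM in Ctrl_Veh, 198.4 to 213.7 CPM in ELA_Veh), the zinc finger genes Zfp532 (44.4 to 65.6, 66.6 to 73.7 CPM) and Zfp654 (18.3 to 29.2, 29.6 to 33.4 CPM), and Iqschfp (0.632 to 1.62, 1.64 to 3.61 CPM). The Cdk17 difference was 0.08 on the log2 scale.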
